A study of Mus musculus with 6 samples.

Results

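The genes described here are 9 reported targets of the microRNA miR-21: Pdcd4, Pelo, Peli1, Stk40, Rhob, Krit1, Tgfbi, Fam3c and Armcx1. They were taken by name, through every probe set that the platform annotation ties to exactly 1 of these symbols. That gave 21 of the 34945 probe sets with a single symbol, which name 9 of 18193 genes on the array. Of the 21, 19 had a mean log2 value of at least 3 over the 6 arrays and were tested, and each of the 9 genes kept at least 1 tested probe set. The 2 untested probe sets were 1 each of Peli1 and Krit1.

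The study compared mouse sarcoma cells on 3′ expression arrays of Affymetrix. In 3 samples 1 copy of the gene for Dicer was lost (Dicer heterozygous), and in 3 samples both were lost (Dicer null). All 6 came from strain C57BL6/J and were harvested at confluence. By their genotype, the heterozygous controls carry a lost copy too. The sources used here do not give other alleles or the origin of the tumours. The samples of a genotype may be separate lines, as the design text has it, or repeats, as their titles have it, so a p-value here covers just the spread seen between them. Values are log2 signals, on which a difference of 1 is a 2-fold difference, and every difference is null minus heterozygous.

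MicroRNAs are short RNAs that guide Argonaute proteins to matching sites, mostly in the 3′ untranslated region of messenger RNAs, which are then translated less and degraded faster. Dicer cuts the hairpin precursor to release the mature strand. MiR-21 is abundant in fibroblasts and in many tumours, and the genes most often reported as its targets restrain translation, signalling or invasion. Target recognition rests mainly on the seed, bases 2 to 8 from the 5′ end.

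The mature strands are shown because the seed defines which transcripts can be targets. They are from RefSeq on GRCm38.p6, with the seed in capitals. The main strand, miR-21a-5p, lies at chr11:86584120-86584141 on the minus strand.
mmu-miR-21a-5p: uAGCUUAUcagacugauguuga
mmu-miR-21a-3p: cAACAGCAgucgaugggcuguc
mmu-miR-21b: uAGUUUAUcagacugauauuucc
mmu-miR-21c: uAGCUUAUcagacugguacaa
MiR-21c has the same seed as miR-21a-5p, and these were the 2 of 1738 mature entries in the table that share it. MiR-21b differs from miR-21a-5p inside the seed, by C4U counted from the 5′ end. A transcript paired with the seed of miR-21a-5p holds AUAAGCU. Which transcripts on these arrays hold that match was not analysed here, and the arrays do not measure the mature strands.

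None of the 9 genes passed the test, and those whose groups did not overlap were all higher without Dicer. Limma's moderated test was adjusted by Benjamini-Hochberg over every tested probe set. With it, 0 of 9 genes and 0 of 19 probe sets had an adjusted p under 0.05. Among all tested genes that test called 3.46%, and among all tested probe sets 3.10%. Ordinary t statistics called 0 of all 11425 tested genes, so the absence of members there says nothing about the members. The matrix protein gene Tgfbi, the kinase homologue gene Stk40, the ribosome rescue gene Pelo and the ubiquitin ligase gene Peli1 lay higher in every null array than in any heterozygous array. These are 4 of 9 genes, where such a separation upward held for 14.9% of all tested genes and a separation downward, seen in 0 of the 9, held for 17.3%. The same 4 genes had an unadjusted limma p under 0.05, against 10.5% of all genes in that direction. In RNA of whole cultures, fewer cells with a transcript and less of it per cell cannot be told apart.

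By probe set, 9 of 19 were separated upward and 0 downward, against 16.3% upward among all tested probe sets. These 9 share genes, since 4 belong to Tgfbi and 2 to Peli1. The median log2 difference of the 9 genes, each by its brightest tested probe set, was 0.37, and that of all tested genes was -0.01. Leaving out 1 array gave 0.24 (without heterozygous replicate 1) to 0.55 (without null replicate 3), and averaging the probe sets of each gene gave 0.25. With arrays weighted by their noise, 3 of the genes were called, Tgfbi (limma adjusted p = 0.0226), Stk40 (0.0268) and Pelo (0.0287), in a setting that called 13.1% of all tested genes. The weights of the heterozygous arrays were 0.606, 2.89 and 0.341, so replicate 2 counted for most of that group. Those of the null arrays were 1.55, 0.779 and 1.39.

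**Figure D1:**
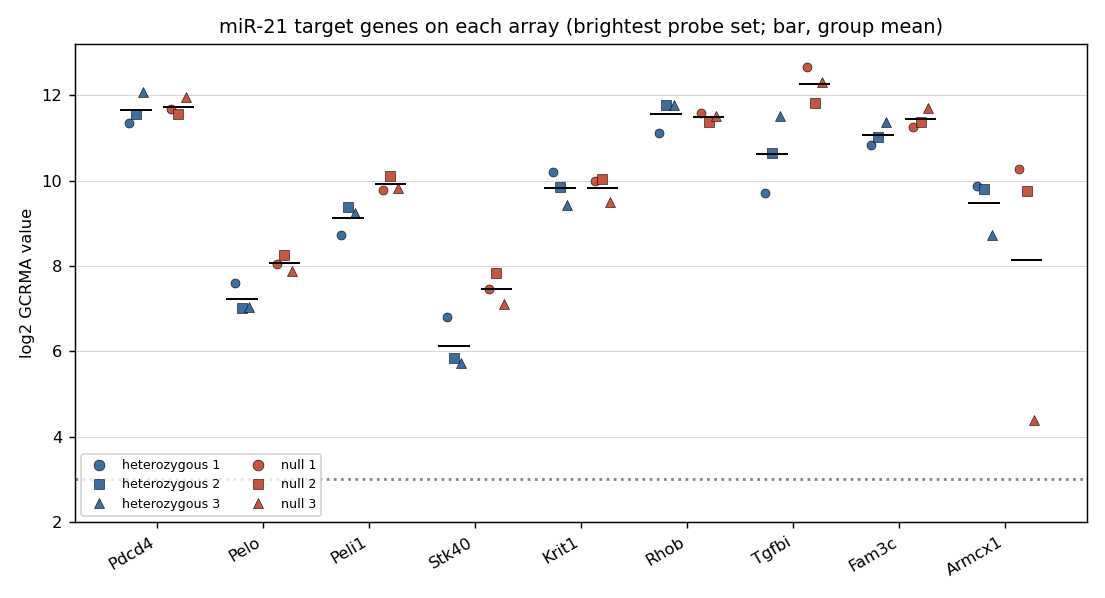
Log2 GCRMA value (vertical axis) of the brightest probe set of each gene on each array, blue for Dicer heterozygous and red for Dicer null, with a bar at each group mean of 3 arrays and a dotted line at the minimum mean for testing. Pelo, Peli1, Stk40 and Tgfbi have all red points above all blue points, and Armcx1 has a single low point, 4.38 in null replicate 3.

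The arrays themselves bear on these values. Heterozygous replicate 1 had the lowest value of the 6 arrays in 5 of the 9 genes. It was also the only array with a clear signal of Krt18, a keratin of simple epithelia (9.02, against 2.0 to 2.68 elsewhere). The same array was highest for the mesenchymal marker Thy1 (4.29, against 1.45 to 1.77) and the leukocyte marker Cd68 (7.13, against 4.43 to 5.84). The part of this in the results was not tested. Of 8 epithelial markers, 5 had a mean under 3, among them Cdh1 and Esrp1. Krt18, Krt19 and Epcam were the others: Krt19 read 8.92, 7.07 and 4.75 in heterozygous and 8.5, 8.15 and 6.49 in null arrays, and Epcam 2.53 to 5.21, highest in null replicate 2. The mean of the list was 2.53 to 4.22 in heterozygous and 2.76 to 3.56 in null arrays. All 8 endothelial markers and 6 of 7 leukocyte markers lay under 3, with Cd68 above it, while 7 of 8 mesenchymal markers were above it and Thy1 was not. Dicer1 gave differences of 0.14 and 0.27 by its probe sets (limma adjusted p = 0.693 and 0.573), and where the deletion lies in the gene is not stated in the labels.

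Of the 2 genes that act in translation, Pelo was separated between the groups and Pdcd4 was not, and neither was called. Pdcd4 is a tumour suppressor that holds the helicase eIF4A away from the initiation complex, and it is among the best known targets of miR-21. Its single probe set read 11.34, 11.57 and 12.07 in heterozygous arrays against 11.67, 11.56 and 11.95 in null arrays. The groups overlap fully, with the highest and the lowest value both in heterozygous arrays. The means were 11.7 ± 0.37 and 11.7 ± 0.20 (SD, n = 3), a log2 difference of 0.07 (SE 0.24, limma adjusted p = 0.897). The 95% interval of that difference ran from 0.70-fold to 1.57-fold, so larger changes of its RNA in either direction lie outside it. The sign turned without heterozygous replicate 1 (-0.09) and without null replicate 3 (-0.05).

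Pelo encodes a protein that, with the GTPase Hbs1l, frees stalled ribosomes. Its single probe set read 7.60, 7.02 and 7.03 in heterozygous and 8.04, 8.26 and 7.88 in null arrays. All null values lay above 7.60, the highest heterozygous one, by at least 0.28. The difference was 0.84 (SE 0.23; 1.79-fold, 95% interval 1.23 to 2.62) and the limma adjusted p 0.0970. It was positive in all 17 alternatives in which Pelo could be tested, between 0.74 and 1.04.

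Peli1 and Stk40 act in inflammatory signalling. Peli1 is a ubiquitin ligase of the Toll and interleukin-1 receptor pathway. Its brightest probe set read 8.72, 9.38 and 9.25 in heterozygous and 9.79, 10.11 and 9.83 in null arrays. The null arrays were higher throughout, with a gap of 0.41 between the groups. The difference was 0.79 (SE 0.23; 1.73-fold) with a limma adjusted p of 0.113.

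The other probe sets of Peli1 did not all follow. A second bright one, 1417372_a_at, gave 0.49 (SE 0.21) with groups that did not overlap and correlated with the first at r = 0.94 over the 6 arrays. The dimmer 1431061_s_at gave 0.40, with overlap. The probe set 1431060_at pointed the other way, at -0.68 (SE 0.41), and its heterozygous values were 5.43, 5.81 and 7.0. That last value, of heterozygous replicate 3, stood apart from the other 5 arrays, which lay between 5.26 and 5.81. The untested probe set had means of 2.92 and 2.85. None of the tested ones had an adjusted p under 0.05 in limma.

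Stk40 encodes a kinase homologue described as an inhibitor of NF-κB and p53 driven transcription. Its single probe set read 6.81, 5.85 and 5.72 in heterozygous and 7.46, 7.83 and 7.10 in null arrays. Heterozygous replicate 1 was the nearest to the null arrays, 0.29 under the lowest of them. The difference was 1.34 (SE 0.35; 2.53-fold, 95% interval 1.40 to 4.56) with a limma adjusted p of 0.0944. Leaving out 1 array gave 1.13 to 1.68 and limma adjusted p values of 0.0503 to 0.244.

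**Figure D2:**
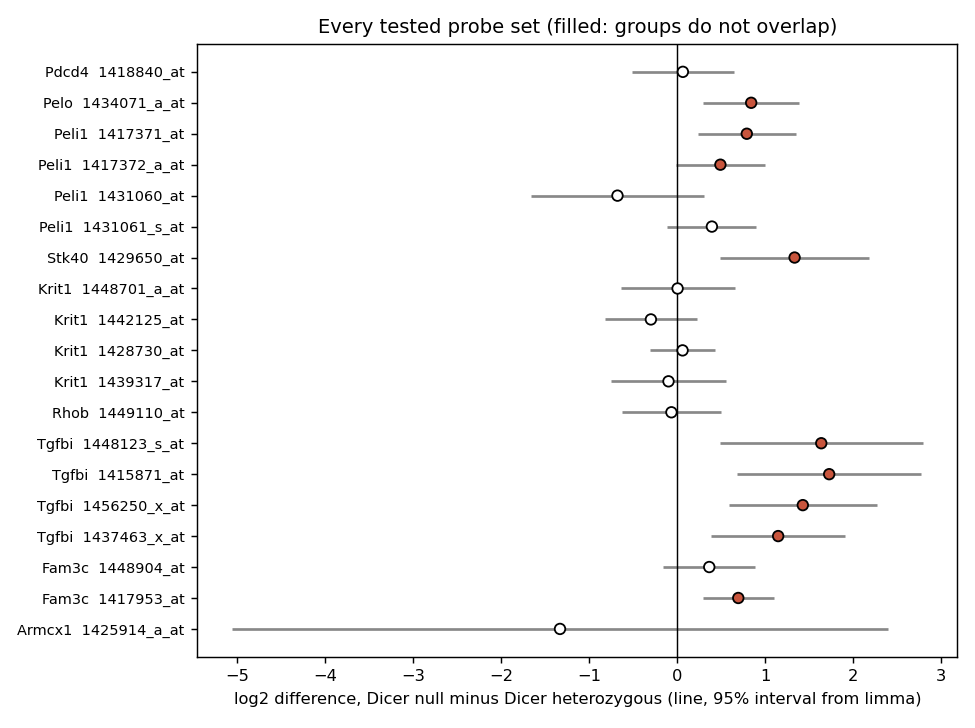
Log2 difference, Dicer null minus Dicer heterozygous (horizontal axis), of each of the 19 tested probe sets, with its 95% interval from limma; filled points are probe sets whose groups of 3 arrays do not overlap. All filled points lie above 0, the 4 of Tgfbi between 1.15 and 1.73, and the interval of Armcx1 runs from -5.06 to 2.40.

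Stk40 and Pelo had nearly the same pattern over the arrays, although the genes lie on different chromosomes (4 and 13). Among 11023 other named genes compared, Pelo was the gene whose log2 values correlated best with those of Stk40, at r = 0.997 over the 6 arrays, and the reverse held too. Both were higher in heterozygous replicate 1 than in the other heterozygous arrays and highest in null replicate 2. This is a description of 6 points that share 2 groups. The next most alike for Stk40 were Ulbp1, which encodes a ligand of a natural killer cell receptor (r = 0.992), and the kinase subunit gene Pik3cb (0.991). For Pelo they were the zinc finger gene Zfp941 (0.993) and again Pik3cb (0.990). For Peli1 they were the Notch coactivator gene Maml1 (0.992), the RNA uridylyltransferase gene Tut4 (0.991) and Ankib1 (0.990).

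**Figure D3:**
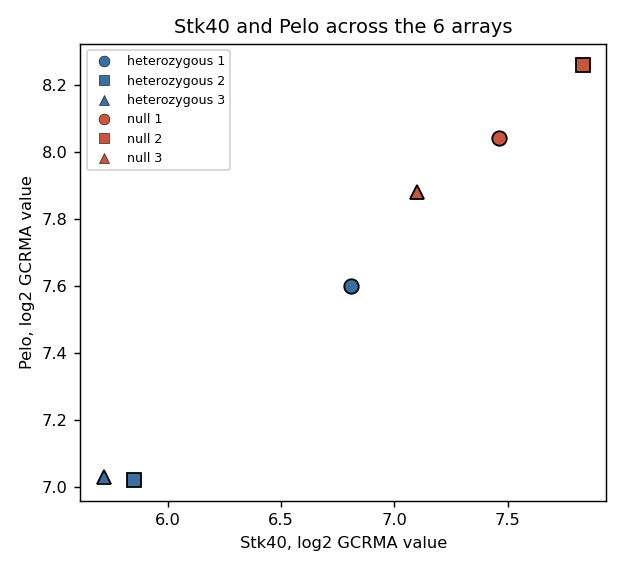
Log2 GCRMA value of Stk40 (horizontal axis) and of Pelo (vertical axis) on each of the 6 arrays, blue for Dicer heterozygous and red for Dicer null. The points lie close to a line (r = 0.997), with heterozygous replicates 2 and 3 lowest and null replicate 2 highest.

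Rhob and Krit1, both regulators of cell shape and junctions, showed no difference beyond the spread of the arrays. Rhob encodes a small GTPase of endosomes that growth factors and stress induce quickly. Its probe set read 11.11, 11.78 and 11.78 in heterozygous and 11.58, 11.38 and 11.52 in null arrays. All null values fall within the heterozygous range. The difference was -0.06 (SE 0.23, limma adjusted p = 0.898), with an interval of 0.65-fold to 1.41-fold, and its sign turned with arrays centred on their medians and without heterozygous replicate 2 or 3.

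Krit1 encodes a scaffold of endothelial junctions that is mutated in cerebral cavernous malformation. Its brightest probe set read 10.21, 9.85 and 9.43 in heterozygous and 9.98, 10.04 and 9.49 in null arrays, with full overlap. The difference was 0.01 (SE 0.27, limma adjusted p = 0.993), and its sign turned in 7 of 18 alternatives, among them quantile normalization again and array weights. The other tested probe sets gave 0.06, -0.10 and -0.30, each with overlapping groups, and the untested one had means of 2.43 and 2.72. Their signs differ, and the tested pairs correlated between -0.83 and 0.83 over the 6 arrays.

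By the brightest probe sets, the largest difference among the 9 was that of Tgfbi. Tgfbi encodes a secreted matrix protein that binds integrins and is induced by TGF-β. Its brightest probe set read 9.72, 10.64 and 11.51 in heterozygous and 12.65, 11.82 and 12.32 in null arrays. The heterozygous arrays spread over a wide range, from replicate 1 to replicate 3, and the null arrays all lay above them. The means were 10.6 ± 0.90 and 12.3 ± 0.42 (SD, n = 3), a difference of 1.64 (SE 0.48; 3.12-fold, 95% interval 1.40 to 6.94) with a limma adjusted p of 0.115.

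The 4 probe sets of Tgfbi gave like values. The other 3 gave 1.73, 1.43 and 1.15 (2.22-fold to 3.32-fold), with limma adjusted p values of 0.0867, 0.0819 and 0.101. In each of the 4 the groups did not overlap, and every pair correlated at 0.983 or more. The smallest gap between the groups was 0.31 and the largest 0.73. They probe 1 transcript on the same arrays and are no replicates of each other.

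Fam3c encodes an interleukin-like secreted protein known for driving epithelial to mesenchymal transition. Its brightest probe set read 10.83, 11.03 and 11.37 in heterozygous and 11.25, 11.38 and 11.70 in null arrays. Heterozygous replicate 3 lay among the null values, and the difference of 0.37 (SE 0.22) had a limma adjusted p of 0.362. The other probe set read 10.56, 10.75 and 10.74 against 11.20, 11.46 and 11.48. There the groups were 0.45 apart, with a difference of 0.70 (SE 0.17; 1.62-fold) and the smallest limma adjusted p of the 19, 0.0780. With a trend in the variance and robust moderation this was the 1 probe set of the 19 called, at 0.0416. That setting called 526 of all 11425 tested genes, against 395 in the main one. With array weights, which called 13.1% of all tested genes, this probe set was called too, at 0.0385.

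Armcx1, an X-linked gene for an armadillo repeat protein of the outer mitochondrial membrane that takes part in mitochondrial transport, varied more within the null group than between the groups. It read 9.88, 9.80 and 8.72 in heterozygous and 10.27, 9.76 and 4.38 in null arrays. The highest and the lowest value were both in null arrays. The difference was -1.33 (SE 1.54, limma adjusted p = 0.649), and it turned to 0.55 without null replicate 3.

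That low value was shared by the relatives that neighbour Armcx1 on the X chromosome, where the GRCm38.p6 gene table gives the order Armcx4, Armcx1, Armcx6, Armcx3 and Armcx2, with Armcx5 farther along behind other genes. The brightest probe sets of Armcx2, Armcx3, Armcx4 and Armcx6 were also lowest in null replicate 3, at 3.85, 6.75, 4.35 and 3.25. Armcx2 read 10.97 and 9.26 in the other null arrays and 11.23 to 11.46 in the heterozygous ones. Armcx4 was low in heterozygous replicate 3 as well, at 4.87, where Armcx1 too had its lowest heterozygous value. Armcx5 did not follow, at 7.80 to 8.16 on all 6 arrays. In null replicate 3 Xist, the noncoding RNA of X inactivation, read 1.71, against 9.82 to 11.39 on the other arrays. These relatives and Xist were set beside Armcx1 after its values were seen, and none of them was called (limma adjusted p = 0.303 to 0.925). The part of these values in the result for Armcx1 was not tested.

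**Figure D4:**
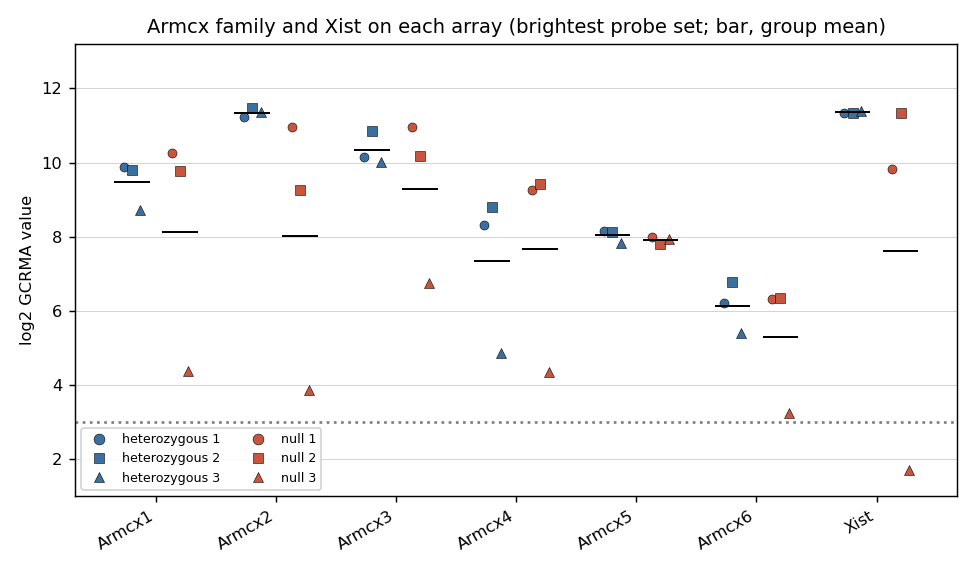
Log2 GCRMA value (vertical axis) of the brightest probe set of 6 Armcx genes and of Xist on each array, blue for Dicer heterozygous and red for Dicer null, with a bar at each group mean; the dotted line marks the minimum mean of 3 for testing. Null replicate 3, the red triangle, is lowest for Armcx1, Armcx2, Armcx3, Armcx4, Armcx6 and Xist, and lies among the others for Armcx5.

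Other genes reported as targets of miR-21 were read from the same fit. Of 38 listed, 35 were on the array and 29 were tested. The ubiquitin ligase subunit gene Skp2, which promotes entry into S phase, rose, and Timp3, an inhibitor of metalloproteinases, fell. By the brightest probe sets these are 2 of 29 called, against 3.46% of all tested genes. Skp2 read 9.81, 9.93 and 9.26 in heterozygous and 10.93, 11.43 and 11.05 in null arrays, a difference of 1.47 (SE 0.25, limma adjusted p = 0.0408). Timp3 read 11.48, 12.54 and 12.51 against 10.22, 9.01 and 8.90, a difference of -2.80 (SE 0.46, limma adjusted p = 0.0386). The calls by the brightest probe sets depend on single arrays. By these probe sets, none of the 29 was called by limma without heterozygous replicate 2, null replicate 2 or null replicate 3. Without heterozygous replicate 1 or null replicate 1 Timp3 stayed called and Skp2 did not, and without heterozygous replicate 3 Skp2 stayed called and Timp3 did not.

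These targets did not point one way. Of the 29, 16 had positive and 13 negative differences, with a median of 0.11, where 48.7% of all tested genes were positive. In 12 every null array lay above every heterozygous one and in 5 below, against 14.9% and 17.3% of all genes. Named after their values were seen, the Sprouty genes, which encode inhibitors of Ras and ERK signalling, stood higher in all null arrays: 1.59 (SE 0.50) for Spry1, 0.59 (SE 0.20) for Spry2 and 1.43 (SE 0.33) for Spry4. Their limma adjusted p values were 0.134, 0.159 and 0.0714, so none was called, though Spry4 was without heterozygous replicate 3 (0.0375) and with array weights (0.0160). Reck, a membrane inhibitor of metalloproteinases, was lower in all null arrays (-2.57, SE 0.90, limma adjusted p = 0.161). It ranged from 4.68 to 8.42 within the null group, and without null replicate 1 it was called, at -3.62 (0.0392).

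**Figure D5:**
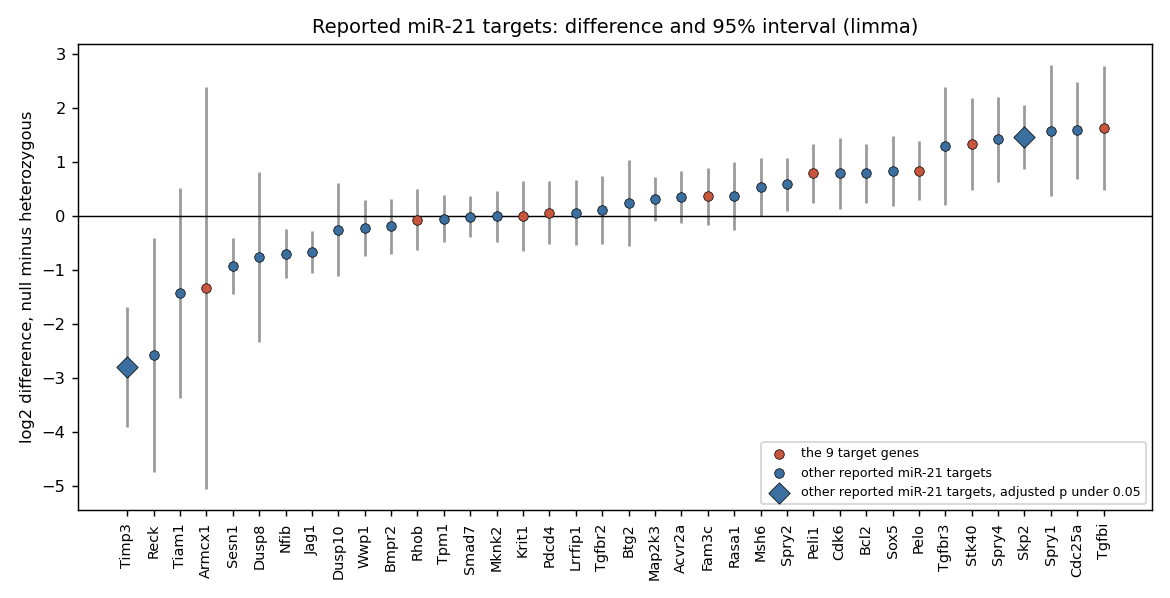
Log2 difference, Dicer null minus Dicer heterozygous (vertical axis), of the 9 genes (red) and of 29 other reported miR-21 targets (blue), sorted by value, with 95% intervals from limma; diamonds have an adjusted p under 0.05. Tgfbi has the highest value, 1.64, and Timp3 and Reck the lowest, -2.80 and -2.57.

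The host region of miR-21 was read through Vmp1, an autophagy gene whose 3′ part overlaps the primary transcript of miR-21. Its brighter probe set read 11.21, 11.46 and 11.69 in heterozygous and 11.24, 11.58 and 11.40 in null arrays. The groups overlap, and the difference was -0.05 (SE 0.20, limma adjusted p = 0.912). The other probe set gave 0.23 (SE 0.28). These values are of Vmp1 transcripts and say nothing of the level of miR-21.

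Partners and relatives of the 9 genes were described from lists by role, 66 genes of which 55 were tested. Among them 1 was called, 1.82%, against 3.46% of all tested genes. It was Ccm2, which encodes the adaptor that binds Krit1 in the cerebral cavernous malformation complex. Ccm2 read 9.60, 9.54 and 9.51 in heterozygous and 10.57, 10.68 and 10.28 in null arrays. It rose by 0.96 (SE 0.17; 1.95-fold, limma adjusted p = 0.0451), and its other 2 probe sets rose by 1.35 and 1.06 (0.0290 and 0.0311). Leaving out any 1 of the 6 arrays ended the call of the brightest probe set, with limma adjusted p values of 0.0644 to 0.139 and differences of 0.88 to 1.08. Over all tested genes these fits called 31 to 465, against 395 with all arrays. Over the 55 genes 22 differences were positive and 33 negative, with a median of -0.07, where 48.7% of all tested genes were positive.

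In the other lists described here no gene was called, and the smallest p in each is given. In the list for Pdcd4 it was that of Eif4a2, a helicase that Pdcd4 binds, at -0.44 (SE 0.15, limma adjusted p = 0.164), 1 of 4 tested. For Pelo it was Gtpbp2, a GTPase of ribosome rescue, at 0.61 (SE 0.44, 0.458), 1 of 4, while Hbs1l itself stood at -0.14. For Peli1 and Stk40 it was Rela, the gene of an NF-κB subunit (-0.55, SE 0.16, 0.117), 1 of 11. The integrin gene Itgb3, among 10 relatives and partners of Tgfbi and Fam3c, stood at 2.59 (SE 0.66, 0.0895), with 7.52, 5.19 and 7.19 in heterozygous and 9.14, 8.67 and 9.87 in null arrays. In the Armcx list it was Trak2, an adaptor of mitochondrial transport (0.88, SE 0.18, 0.0571), 1 of 11.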

How the data were processed

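RNA of 6 mouse sarcoma samples was hybridised as biotin-labelled cRNA. The authors' deposited log2 values were made with R 2.11.1 and GCRMA 2.20.0, per the submitters' processing notes; its settings and chip definition file are not stated there. The log2 scale was read from the range of the values and from what GCRMA writes. GCRMA corrects background by probe sequence and normalizes quantiles, which removes any overall shift in RNA amount. Array medians lay between 3.32 and 3.43, and 3 arrays per group limit the precision.

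Groups come from the sample titles. Of 45037 probe sets, 24385 with a mean of at least 3 over the 6 arrays were tested with limma 3.58.1 in R 4.3.3 (lmFit and eBayes, two-sided, no block, Benjamini-Hochberg adjustment over all of them, threshold 0.05). They stand for 11425 named genes, each represented by its brightest tested probe set. Intervals are 95% intervals from the moderated standard errors. The fit was tested on simulated data. The annotation ties 34945 probe sets to 1 symbol, 932 to several and 9160 to none.

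The members and lists were chosen with earlier results of these data known, so no test was made over a list. The text names all 9 members, called genes of each list or else its smallest p, Vmp1 and Dicer1. It also names the 3 genes of highest correlation for each of the 3 members with the smallest p by brightest probe set. Riken and predicted genes were skipped there. The smallest p of 1 partner list is not reported here. Genes named after their values were seen are marked as such. Alternatives were other minimums (2, 4 or none), a floor at 3, moderation, scaling, array weights, the replicate block, other probe set choices and each array left out. Figures were drawn with matplotlib 3.10.9.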

Additional observations from a re-analysis of the deposited data

How the results depend on the processing

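All settings were planned, and the cause of a move was not tested unless stated. In the main setting 0 member genes, 0 member probe sets, 2 other miR-21 targets and 1 partner gene were called in limma, and 395 of all genes. Gene-by-gene array weights gave 3 member genes, 7 member probe sets, 8 other targets, 8 partner genes and 1496 of all genes. Trend and robust moderation gave 1 member probe set, 2 partner genes and 526 of all genes. Centring arrays, and averaging probe sets, gave 2 partner genes each, and no minimum gave 1 other target. Averaging probe sets, and leaving out suffixed ones, gave 3 other targets each, with Sesn1 lower among them. Ordinary t statistics in the limma model gave 0 other targets, 0 partner genes and 0 of all genes. Without 1 array, 0 member genes and 0 member probe sets were called in each of the 6 fits, 0 to 2 other targets, 0 partner genes and 31 to 465 of all genes. The members' median was then 0.24 to 0.55.

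The difference of Krit1 was -0.033 after quantile normalization again, -0.060 with array weights, -0.081 as a mean of probe sets and -0.30 without suffixed probe sets. That of Rhob was 0.0033 with centred arrays. Without 1 array the differences were -0.19 to 0.20 for Krit1, -0.29 to 0.048 for Rhob, -0.093 to 0.27 for Pdcd4 and -2.40 to 0.55 for Armcx1. Those of Peli1, Stk40, Tgfbi, Pelo and Fam3c kept their sign in each alternative that gave a value. Pelo and Armcx1 have no probe set without a suffix and gave no value there.

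Deviations from the group means correlated between arrays of the same number at -0.06, 0.11 and 0.24. Between arrays of unlike number they correlated at -0.27 to 0.22. With 3 arrays per group these values cannot show whether arrays of the same number were paired. With the number as a replicate block, 0 member genes, 0 member probe sets, 0 other targets and 0 partner genes were called in limma, and 73 of all genes.

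Signal over background, not depth, sets what these arrays can show, and probe sets under a mean of 3 gave no test.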

Other observations

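Around Krit1, the cerebral cavernous malformation complex had values in both directions, described after they were seen. Of 9 tested genes, 3 lay higher in all null arrays and 2 lower, against 14.9% and 17.3% of all genes. Beside Ccm2, the third scaffold gene Pdcd10 stood at 0.33 (SE 0.15) and the kinase gene Map3k3, whose protein binds Ccm2, at 0.57 (SE 0.16). Klf4, a transcription factor gene that this complex is known to restrain in endothelium, stood at -1.04 (SE 0.25), with 10.44, 11.10 and 10.76 in heterozygous and 9.74, 10.01 and 9.43 in null arrays. Itgb1bp1, which encodes an integrin-binding partner of Krit1, stood at -0.68 (SE 0.19). Klf2, the relative of Klf4, stood at -1.30 (SE 0.44), with overlap. None of these 5 was called (limma adjusted p = 0.0776 to 0.258). With array weights, which called 13.1% of all genes, Map3k3 (0.0307), Klf4 (0.0191) and Itgb1bp1 (0.0495) were.

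In the list of Toll and NF-κB partners of Peli1 and Stk40, 8 of 11 tested genes had negative differences and 5 lay lower in all null arrays, with 0 higher in all. Among all 11425 tested genes 5863 differences were negative, and 14.9% of genes lay higher and 17.3% lower in all null arrays. Rela read 8.96, 9.13 and 9.29 in heterozygous and 8.61, 8.52 and 8.60 in null arrays. Nfkbia, Irak1 and Peli2 were named after their values were seen. Nfkbia, the inhibitor that NF-κB induces, stood at -0.48 (SE 0.16) and the kinase gene Irak1 at -0.50 (SE 0.17). Peli2, the relative of Peli1, was near background in the null arrays at 2.11 to 2.51 and read 3.59, 6.16 and 3.41 in the heterozygous ones. None was called by limma with the settings of the report (adjusted p = 0.117 to 0.994 over the 11). Nfkbia passed with trend and robust moderation (0.0474), which called 526 of all 11425 tested genes. Rela (0.0457) and Peli2 (0.0299) passed with array weights, which called 13.1% of all tested genes.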
